A study of Mus musculus with 2 samples.

Results

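Of the 1800 SREBP-2 peaks called in mouse liver chromatin, 230 (12.8%) had their midpoint within 10 kb of the midpoint of another peak on the same chromosome. They were chosen by position alone, so neither the reads of SREBP-2 nor those of the control entered the choice beyond the calling of the peaks themselves. The 230 peaks formed 120 pairs of neighbours in 110 groups, with 101 groups of 2 peaks, 8 of 3 and 1 of 4. In 76 pairs the midpoints lay under 1 kb apart and in 44 they lay 1 to 10 kb apart. Of the 230 peaks, 149 had a neighbour under 1 kb away and the other 81 had neighbours only at 1 to 10 kb. The remaining 1570 peaks are called isolated below.

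Binding was mapped by ChIP-seq, in which chromatin fragments are pulled down with an antibody and sequenced, in livers of C57BL/6 mice. The antibody recognised part of the nuclear, amino-terminal domain of the factor, and non-specific immunoglobulin (IgG) served as the control. The labels give no genotype, treatment, diet, age or sex for either group, and do not say how many animals the chromatin came from. Each antibody has 1 sample, so no difference below could be set against the spread between animals. The intervals cover counting error only, except those of medians, which reflect the spread across peaks. Counted once per position and strand, the reads numbered 2396147 with the SREBP-2 antibody and 7011345 with IgG. Whole liver holds several cell types, and the reads do not say which of them a peak belongs to.

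SREBP-2 is made as a precursor held in the membrane of the endoplasmic reticulum. When membrane sterols are low, it is escorted to the Golgi by SCAP and cleaved, and its amino-terminal domain enters the nucleus. There it binds sterol regulatory elements as a dimer and activates genes of cholesterol synthesis and uptake, in the liver among other tissues. SREBPs activate weakly on their own and are known to act with NF-Y or Sp1 bound close by, so the spacing of binding sites within a regulatory region is part of how the family works. No genome of the files' build was used here, so regions are given by position, and their sequences, motifs and genes are not analysed here.

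The neighbours fell into a dense set below 1 kb and a sparse one above it. The distance between midpoints had a median of 490.5 bp in the pairs under 1 kb (268 to 981 bp) and of 3805 bp in the others (1082 to 9972 bp). No midpoints were closer than 268 bp, and no regions overlapped. Pairs under 1 kb were separated by little unlisted sequence. The gap between their facing edges had a median of 76.5 bp (2 to 578 bp), was under 100 bp in 43 of 76 pairs, and was under 10 bp in 9. From outer edge to outer edge these pairs spanned a median of 877.5 bp (499 to 1430 bp), where isolated peaks had a median width of 370 bp and a largest width of 1387 bp. Only 4 of the 76 pairs spanned more than the widest isolated peak.

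**Figure D1:**
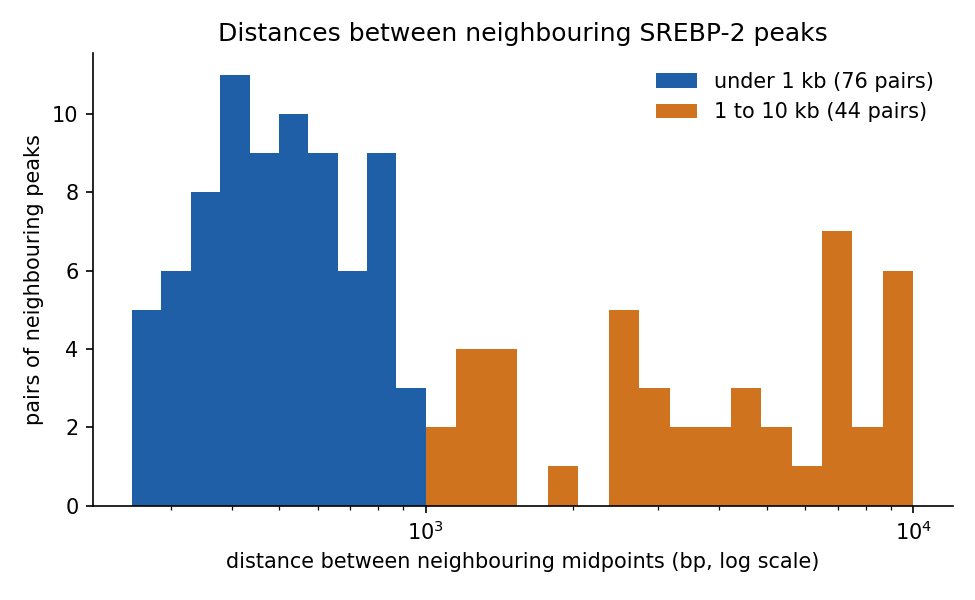
Distances between the midpoints of the 120 pairs of neighbouring peaks, in bp on a log axis, with the number of pairs on the vertical axis and the pairs under 1 kb and 1 to 10 kb apart in separate colours. The 76 pairs under 1 kb fill the range from 268 to 981 bp, while the 44 others are spread thinly up to 9972 bp.

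The pairs nearest to the distance limits are given as a description. The widest pair inside 1 kb lay on chromosome 15, at 38448073 to 38448522 and 38449080 to 38449478, with midpoints 981 bp apart. It held 25 SREBP-2 and 16 IgG distinct reads in the first partner, and 23 and 27 in the second. The next inside, also on chromosome 15, at 96529160 to 96529500 and 96530079 to 96530435 (927 bp), held 18 and 5 reads, then 20 and 23. Just outside 1 kb, the pair on chromosome 1 at 180266629 to 180267246 and 180267796 to 180268243 (1082 bp) held 38 and 39 reads, then 26 and 29. The pair on chromosome 6 at 90412370 to 90412846 and 90413568 to 90413826 (1089 bp) held 60 and 37, then 14 and 15. These 4 pairs overlap in their read counts on either side of the limit. At the outer limit, the pair on chromosome 2 at 25118157 to 25118314 and 25127880 to 25128091 was 9750 bp apart and weak, with 3 and 4 reads, then 11 and 5. The last pair inside, 9972 bp apart on chromosome 5, held the most SREBP-2 reads of all pairs and is described with the partners. Just outside, 10040 bp apart, the peaks on chromosome 5 at 147032979 to 147033203 and 147042993 to 147043268 held 12 and 11 reads, then 10 and 5. A further pair outside, 10232 bp apart on chromosome 8 at 87504072 to 87504533 and 87514421 to 87514648, held 23 and 25, then 10 and 14.

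Between partners under 1 kb apart, SREBP-2 reads formed a valley that was deeper than that of IgG reads. In windows of 100 bp summed over the 76 pairs, 594 SREBP-2 reads lay at the midpoints of the partners with the lower coordinate, 233 at the middle of the gap and 551 at the midpoints of the other partners. The middle thus held 0.407 times the mean of the 2 midpoints. The IgG library had 365, 363 and 424 reads in the same windows, or 0.92 times. In 63 of the 76 pairs the middle held fewer SREBP-2 reads than either midpoint, and in 4 it held more than both. In the 43 pairs with gaps under 100 bp the middle window reached into the partners. The edges of the regions were presumably set by the caller on these SREBP-2 reads, so a valley at the gap is partly built in and is given as a description.

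The depth of the valley depended on the gap and on where a read was placed. Reads were placed 100 bp downstream of their 5' end, the middle of the stated fragment of 200 bp. With gaps under 50 bp (27 pairs) the middle held 138 SREBP-2 reads, against 233 and 203 at the midpoints. With gaps of at least 50 and under 150 bp (24 pairs) it held 61 against 193 and 179. With gaps of 150 bp or more (25 pairs) it held 34 against 168 and 169, or 0.202 times their mean, while IgG held 107 against 121 and 147, or 0.799 times. With reads moved by 47 bp, a shift taken from earlier results of these data, all 76 pairs together gave 120 against 739 and 672 SREBP-2 reads, or 0.17 times, and 73 of the 76 had the lowest count in the middle. The IgG reads then were 334 against 383 and 432, or 0.82 times. With gaps of 150 bp or more that setting gave 0.129 times for SREBP-2, and IgG held 91 against 149 and 149, or 0.611 times, so the control dipped there as well. At the same shift the pairs whose regions nearly touch, with gaps under 50 bp, gave 67 against 294 and 249, so they too had a valley. Its window of 100 bp was wider than these gaps and lay largely in the partners.

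**Figure D2:**
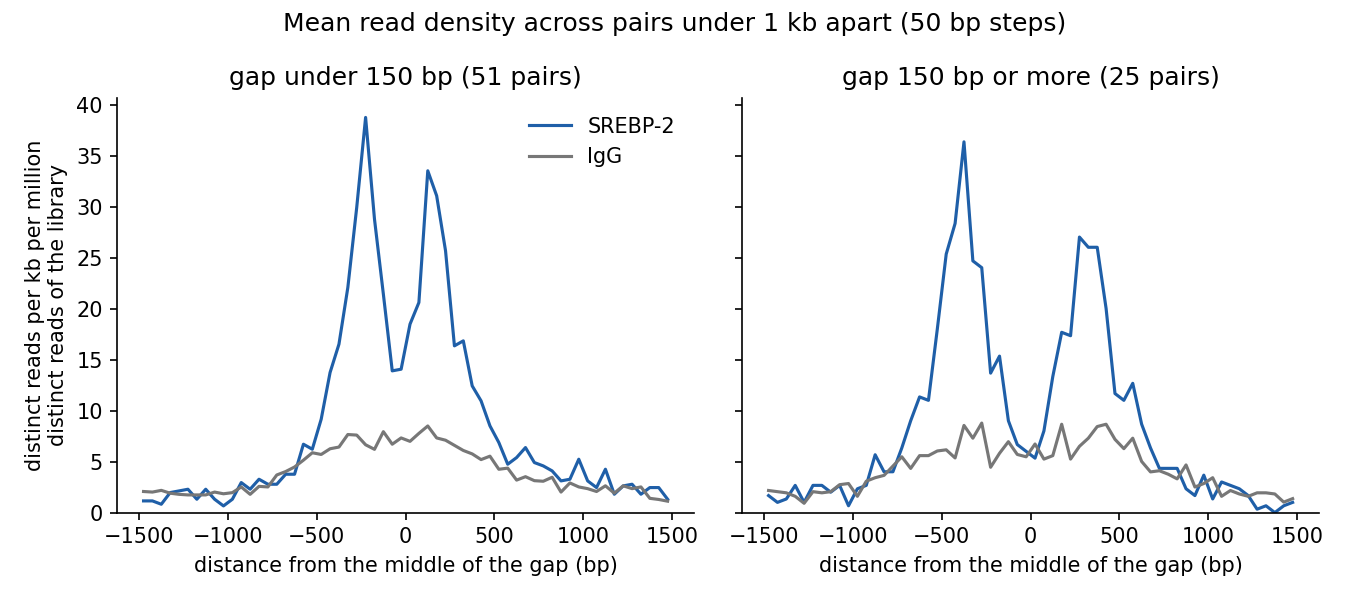
Mean density of SREBP-2 and IgG reads in 50 bp steps around the middle of the gap, for the pairs under 1 kb apart with gaps under 150 bp (left, 51 pairs) and of 150 bp or more (right, 25 pairs), with the distance in bp on the horizontal axis and distinct reads per kb per 1000000 distinct reads of the library on the vertical axis. SREBP-2 has a summit on each side of the gap, falling to 13.9 in the step 75 bp before the middle on the left and to 5.34 in the step 25 bp after it on the right. IgG varies less. Between the summits on the right it goes from 8.79 in the step 275 bp before the middle to 4.45 in the step 225 bp before it.

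Examples show how few reads each valley rests on. On chromosome 10, the pair at 80164430 to 80164988 and 80165267 to 80165699 held 14, 1 and 7 SREBP-2 reads in the windows at the first midpoint, the middle of the gap and the second midpoint. Its IgG reads were 7, 8 and 11 in the same order. With the shift of 47 bp the SREBP-2 reads were 14, 0 and 10 and the IgG reads 14, 4 and 12, so the middle was then lowest in both libraries. On chromosome 5, the regions at 22938804 and 22939125, the closest midpoints of all, are parted by 6 bp. They gave 7, 4 and 5 SREBP-2 reads, and 9, 2 and 9 with the shift of 47 bp. On chromosome 9, the regions at 75257118 and 75257499, also 6 bp apart, gave 5, 4 and 24 reads, most of them at the second midpoint.

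The whole gaps share reads with the windows and end at the same region edges. Their lower SREBP-2 density is thus also partly built in and is given as a description. Densities are given as distinct reads per kb per 1000000 distinct reads of the library. The partners under 1 kb apart had an SREBP-2 density of 24.96 (exact Poisson 95% interval 24.1 to 25.8), the gaps between them 8.33 (7.29 to 9.47), and flanks of the same length outside the pair, left out where they held another peak, 4.62 (4.07 to 5.22). The gap density was therefore 0.334 times that of the partners (exact binomial 95% interval 0.291 to 0.381) and 1.8 times that of the flanks (1.5 to 2.16). A gap has a peak on both sides and a flank on 1 side only, and this part was not separated. In groups of 3 or more peaks a flank could also lie in the gap of a neighbouring pair. Some reads were then counted in both places, which the intervals do not allow for. IgG densities were 7.41, 6.18 and 4.18 in the same 3 places, so the gaps held 0.834 times the IgG density of the partners (0.757 to 0.917). The control also rose over the flanks, with 1.48 times their IgG density in the gaps (1.32 to 1.66). Among the 33 gaps of at least 100 bp, the SREBP-2 density lay below that of both partners in 31, and the IgG density in 15.

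Relative to the control, the gaps of pairs under 1 kb held less SREBP-2 signal than the partners. This too is partly built in by the edges of the regions. The ratio of SREBP-2 to IgG is the ratio of the shares of the 2 libraries. A value of 1 means that a place holds equal shares of both, whatever its density. Summed over the gaps there were 233 SREBP-2 against 506 IgG reads, giving a ratio of 1.35 (exact Clopper-Pearson interval 1.15 to 1.58), where the partners themselves held 3351 and 2913, a ratio of 3.37 (3.2 to 3.54). The ratio in the gaps depended on the setting. It was 1.02 with the shift of 47 bp, 0.959 with reads at their 5' ends and 1.02 with all reads as deposited. Using 1 length of IgG read at a time, it was 1.18 for the 36-base and 2.8 for the 37-base control reads. The outer flanks had a ratio of 1.11 (0.953 to 1.28).

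Between partners 1 to 10 kb apart, the SREBP-2 density was 1.1 times that of the flanks (1.02 to 1.2) and the IgG density 0.965 times (0.919 to 1.01). Here too a gap has a peak on both sides and a flank on 1 side only, which was not separated. The 44 gaps covered 185.4 kb, with 902 SREBP-2 against 2560 IgG reads and a ratio of 1.03 (0.955 to 1.11), where the flanks had 0.901 (0.849 to 0.956). The SREBP-2 density was 29.4 in the partners, 2.03 in the gaps (1.9 to 2.17) and 1.84 in the flanks (1.75 to 1.94). The IgG density was 8.78, 1.97 and 2.04 in the same order. More than 500 bp from both facing edges the SREBP-2 density was 1.43 and the ratio 1.003 (0.904 to 1.11). That density lay below the 1.84 of the flanks, which were not trimmed near the peaks. All 44 gaps had an SREBP-2 density below that of both partners, and 43 had such an IgG density. For SREBP-2 this is partly built in, since the regions were presumably called on these reads.

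Among the gaps over 2000 bp, 2 had the most IgG reads per kb. Shorter gaps of pairs 1 to 10 kb apart, on chromosomes 1, 6, 15 and 17, were denser in IgG than the one on chromosome 9. On chromosome 9, between the peaks at 3027368 to 3027567 and 3032672 to 3032790, the gap held 127 SREBP-2 and 195 IgG reads (densities 10.4 and 5.45), while the peaks held 15 and 17, then 3 and 4. The 10208 bp of flanks outside this pair held 336 and 530, so reads were dense there as well. On chromosome 17, between 34255680 to 34256033 and 34259262 to 34259938, the gap held 78 and 177 (densities 10.1 and 7.82), with 13 and 20, then 37 and 46, in the peaks. The 6456 bp of flanks outside that pair held only 20 and 52. Without these 2 gaps, chosen after their values were seen, the ratio over the gaps was 0.932 (0.855 to 1.02) and that of the flanks of the remaining pairs 0.777 (0.727 to 0.831). The gaps then had 1.12 times the SREBP-2 density of the flanks (1.02 to 1.23) and 0.935 times their IgG density (0.887 to 0.984). Peaks on both sides of a gap were again not separated from this.

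**Figure D3:**
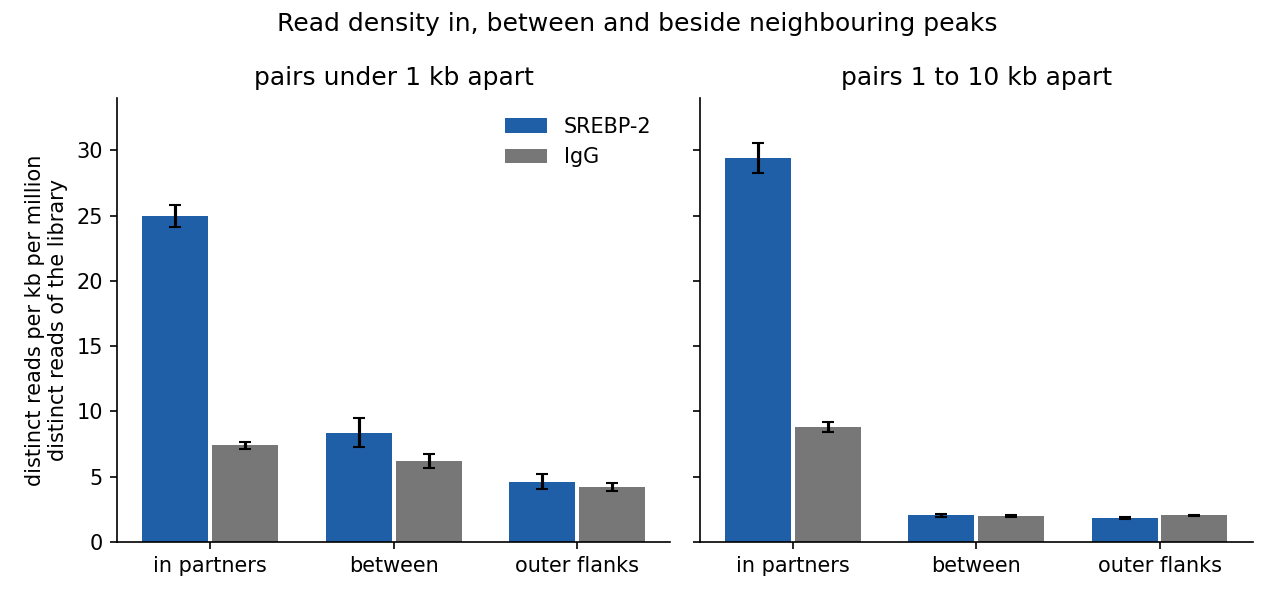
Density of distinct reads per kb per 1000000 distinct reads of the library in the partners, between them and in outer flanks of the same length, for pairs under 1 kb (left) and 1 to 10 kb apart (right), with exact Poisson 95% intervals as error bars. Between partners under 1 kb apart SREBP-2 drops from 24.96 to 8.33 while IgG goes from 7.41 to 6.18, and 1 to 10 kb apart SREBP-2 drops from 29.4 to 2.03, against 1.84 in the flanks, and IgG from 8.78 to 1.97, against 2.04.

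The partners of a pair were compared with each other by a two-sided Fisher's exact test of their SREBP-2 and IgG reads, adjusted by Benjamini-Hochberg over the 120 pairs. The test compares the reads of regions in these libraries, not conditions. It called 1 of 120 pairs (0.833%), and 12 (10%) had an unadjusted p of at most 0.05. The pair called was the one with the most SREBP-2 reads, on chromosome 5. Its peak at 125946123 to 125946548 had 120 SREBP-2 against 24 IgG reads and a ratio of 14.2 (9.38 to 23.7). The partner at 125956025 to 125956591 held 89 and 49, a ratio of 5.27 (3.71 to 7.69). By the conditional odds ratio of the counts, with no read added, the first ratio was 2.74 times the second (exact 95% interval 1.52 to 5.05; Fisher's exact test, adjusted p = 0.0453). Against the 36-base IgG reads alone the call was lost (2.75 times, adjusted p = 0.0816 in the same exact test), and likewise against the 37-base reads, of which the median peak held 2 (2.68 times, adjusted p = 1 in the same exact test). With all reads as deposited, where duplicates count separately, the test called 16 pairs. With the shift of 47 bp the call held (3.23 times, adjusted p = 0.00542 in the same exact test). The first peak also had more copies of each read, 3.02 reads per SREBP-2 position, where the members as a whole had 1.97; the part of this in the difference was not tested. The 9476 bp between these peaks held 23 SREBP-2 and 79 IgG reads, or densities of 1.01 and 1.19.

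The other 119 pairs did not pass, which does not show that their partners were bound alike. By the same odds ratio, the larger ratio exceeded the smaller by a median of 1.58 times over all pairs, 1.63 under 1 kb and 1.36 at 1 to 10 kb. It was more than 2 times in 26 of 120 pairs. The exact interval of this difference lay within 2-fold in either direction in 0 pairs and within 4-fold in 49. A difference of 2-fold between partners could therefore not be excluded for any pair at this depth. How large a difference the test could detect was not worked out. The next pair by p lay on chromosome 12 at 56592891 and 56593378 (509 bp apart), with 41 and 14 reads, then 23 and 30 (3.77 times, 1.58 to 9.4; Fisher's exact test, adjusted p = 0.0957).

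**Figure D4:**
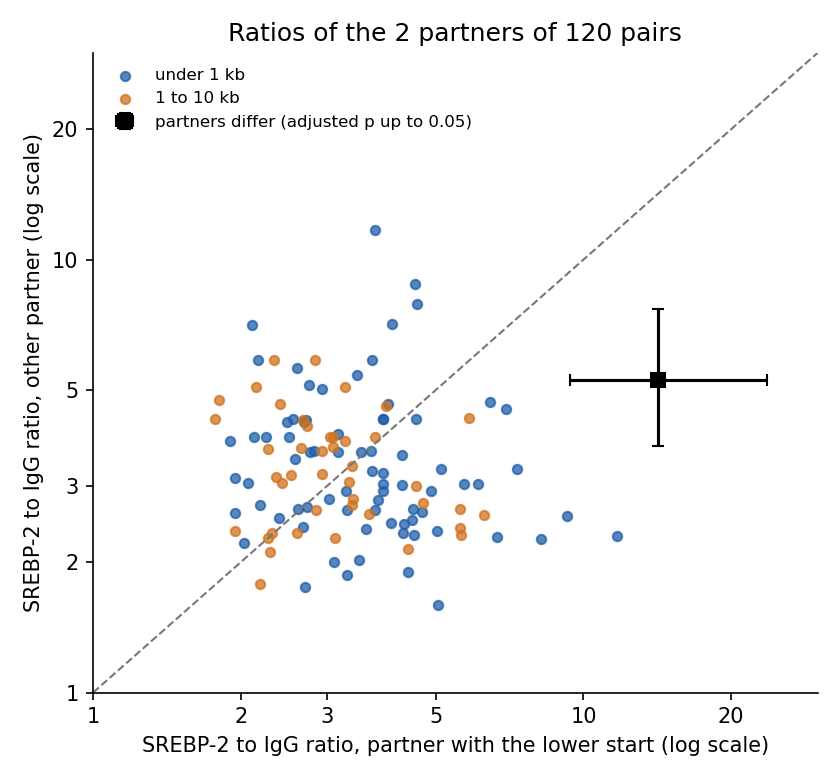
SREBP-2 to IgG ratio of the partner with the lower start (horizontal) against that of the other partner (vertical) for the 120 pairs, both on log axes, with equal ratios on the dashed line and exact 95% intervals for the pair on chromosome 5 whose partners differed. That pair, at 14.2 and 5.27, lies apart from the cloud, and the other pairs show no line along which the ratios of partners rise together.

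At this depth, the measured ratio of a peak said little about that of its neighbour. Across the 120 pairs the log2 ratios of partners had a Pearson r of -0.1 and a Spearman rho of -0.15. Their SREBP-2 densities had an r of 0.29 and a rho of 0.16, and their IgG densities an r of 0.07 and a rho of 0.12. For the SREBP-2 density, r was 0.2 and rho 0.26 under 1 kb, and r was 0.36 and rho 0.03 at 1 to 10 kb. These are descriptions over pairs that share both libraries, and 10 peaks stand in 2 pairs each. The counting error of single peaks weakens such correlations and was not removed. Neither side was the stronger as a rule, with more SREBP-2 reads in the partner of lower coordinate in 60 pairs, in the other in 56 and equal in 4.

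Among the pairs under 1 kb, the richest in SREBP-2 reads was that on chromosome 6 at 108609376 to 108610029 and 108610289 to 108610798. Its first peak held 78 SREBP-2 and 37 IgG reads (ratio 6.08, 4.12 to 9.39) and its second 27 and 26 (3.03, 1.71 to 5.42). The 259 bp between them held 4 and 11 reads. A second pair on chromosome 6, at 113026389 to 113026605 and 113026626 to 113027565, paired a weak peak of 12 and 19 reads (1.9, 0.818 to 4.01) with a wide peak of 72 and 55 (3.81, 2.66 to 5.54). The first of these is not separable from the control at this depth. On chromosome 9, the partners at 75257118 to 75257492 and 75257499 to 75258160 held 23 and 19 reads (3.51), then 58 and 47 (3.6), nearly the same ratio in peaks of unequal width. On chromosome 10, the pair at 80164430 held 47 and 27 reads (5.02, 3.11 to 8.51), then 24 and 30 (2.36, 1.31 to 4.14).

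Among the pairs 1 to 10 kb apart, the pair on chromosome 5 at 125946123 led, and a second strong pair lay on the same chromosome at 125869593 to 125870615 and 125873388 to 125873841. Its first peak, the widest of the members at 1023 bp, held 96 SREBP-2 and 103 IgG reads (ratio 2.73, 2.04 to 3.64) and its second 23 and 16 (4.13, 2.13 to 8.52). It had more IgG reads than any other of the 1800 peaks, so many SREBP-2 reads went with a modest ratio. On chromosome 15, the pair at 82000175 to 82000651 and 82001532 to 82001778 held 96 and 86 reads (3.26, 2.42 to 4.42), then 32 and 18 (5.08, 2.83 to 9.84). In both of these pairs the partner with fewer reads had the higher ratio, with overlapping intervals. On chromosome 9, the pair at 77758248 to 77758939 and 77765108 to 77765377 held 85 and 44 reads (5.59, 3.88 to 8.33), then 29 and 32 (2.66, 1.55 to 4.53). The partners on chromosome 15 at 38228972 to 38229847 and 38230335 to 38231013 held 38 and 46 (2.43), then 51 and 49 (3.04).

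Groups of 3 or more peaks held pairs under 1 kb apart, pairs 1 to 10 kb apart, or both. The only group of 4 lay on chromosome 1, from 107886848 to 107890754. Its first 3 peaks were each under 1 kb from the next and held 13, 10 and 13 SREBP-2 reads against 14, 11 and 16 IgG reads, and the last, at 107890511 to 107890754, held 18 and 11. All 4 had a lower bound of the ratio above 1, from 1.01 to 2.14. On chromosome 7, 3 peaks stood side by side from 71082236 to 71083813. Their SREBP-2 reads were 18, 33 and 44 and their IgG reads 7, 21 and 56, so the ratio went from 6.95 (3.0 to 21.3) through 4.52 (2.58 to 8.36) to 2.31 (1.51 to 3.47). On chromosome 12, 3 narrow peaks from 92828298 to 92829058 held 13, 21 and 7 SREBP-2 reads against 8, 14 and 9 (ratios 4.55, 4.29 and 2.34), with overlapping intervals.

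A further 3 of these groups lay on chromosome 11. From 3099073 to 3103226 the ratios were 6.27, 2.57 and 3.46, from 74644250 to 74651557 they were 5.63, 2.32 and 2.34, and from 116704465 to 116715216 they were 2.29, 2.11 and 7.07. In each of them the peak with the highest ratio had an interval that overlapped at least 1 of the others. On chromosome 4, the peaks from 141094405 to 141102904 had ratios of 5.85, 4.31 and 2.45. On chromosome 8, from 124102410 to 124114444, they were 4.39, 2.15 and 5.08, and the lower bound of the middle peak was 0.831. On chromosome 9, from 106788687 to 106794362, they were 3.9, 3.04 and 3.9.

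Peaks with a neighbour differed in strength from isolated peaks by less than the counting error. The 230 members together had 5683 SREBP-2 against 4940 IgG reads and a ratio of 3.37 (3.24 to 3.5), and the 1570 isolated peaks 38782 against 33574 and a ratio of 3.38 (3.33 to 3.43). For members with a neighbour under 1 kb away the ratio was 3.37 (3.2 to 3.54) and for those with neighbours only at 1 to 10 kb it was 3.37 (3.17 to 3.57). The ratio of the members was 0.996 times that of isolated peaks (exact 95% interval from counting error 0.956 to 1.04), as it was for both distance classes. Per peak, members had a median of 21.5 SREBP-2 reads (lowest 3, highest 120) and 18 IgG reads (1 to 103). Isolated peaks had 21 (0 to 263) and 20 (0 to 83). The groups overlap over nearly their whole range.

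The median ratio with 1 read added to each count was 3.28 in the members (exact 95% interval of the median 3.05 to 3.59), 3.29 under 1 kb, 3.15 at 1 to 10 kb only, 3.14 in isolated peaks (3.09 to 3.19) and 3.15 in all peaks. The lower bound of the ratio exceeded 1 at 210 of the 230 members (91.3%), where it did so at 92.4% of all 1800 peaks and 92.5% of the isolated ones. It exceeded 1 at 139 of the 149 members with a neighbour under 1 kb (93.3%) and at 71 of the other 81 (87.7%). In 98 of the 120 pairs both partners passed, in 22 only 1 did and in 0 neither did. A lower bound above 2 was reached by 71 members (30.9%), against 29.2% of all peaks. Ratios above 5 were found at 34 members (14.8%), against 14% of all peaks, and above 10 at 3 (1.3%), against 1.78%. Each of these shares lay near that of all peaks.

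The 3 members with ratios above 10 were the peak on chromosome 5 at 125946123 (14.2), the peak on chromosome 3 at 58496246 to 58496614 with 27 and 6 reads (11.7, 5.33 to 39.0), and the peak on chromosome 5 at 76732986 to 76733184 with 7 reads and 1 read (11.7, 2.63 to 923). The last rests on a single IgG read. The lowest ratio was 1.6 (0.392 to 4.7), from 5 SREBP-2 against 10 IgG reads in the peak on chromosome 4 at 124528420 to 124528621. Its partner at 124527628 to 124528137 held 30 and 17. All 230 members held at least 1 read of each library.

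**Figure D5:**
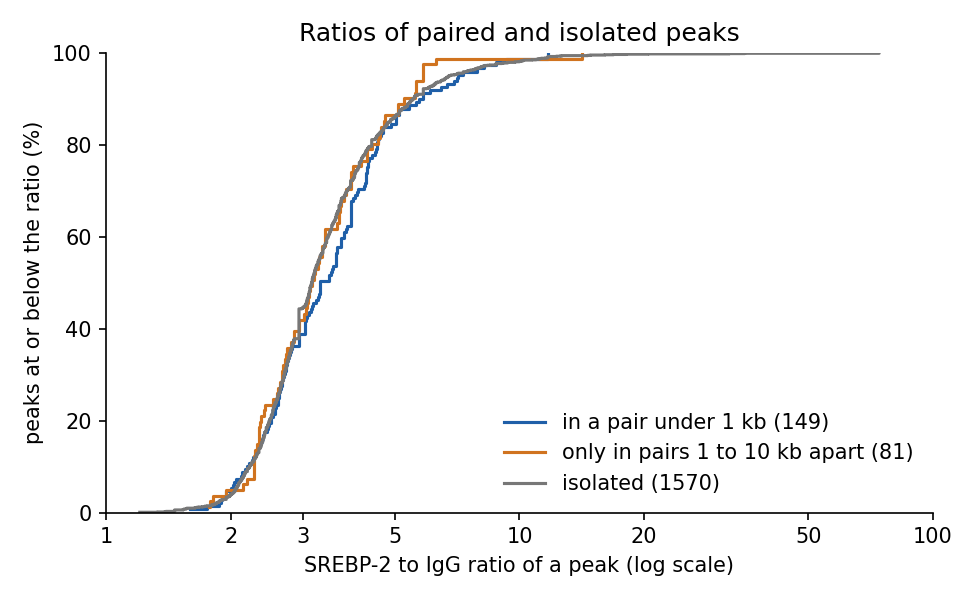
Share of peaks at or below a given SREBP-2 to IgG ratio (log axis) for the 149 peaks with a neighbour under 1 kb, the 81 with neighbours only at 1 to 10 kb and the 1570 isolated peaks. The 3 curves lie on each other over most of their range, with medians of 3.29, 3.15 and 3.14, and only isolated peaks reach beyond 14.2.

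Other properties that the distance rule did not use were also alike. Members had a median width of 352.5 bp (quartiles 268 and 467.5 bp), those with a neighbour under 1 kb 341 bp, and isolated peaks 370 bp (quartiles 283 and 493 bp). The median SREBP-2 density per peak was 23.2 in members and 22.7 in isolated peaks, and the median IgG density 7.34 in both. SREBP-2 positions carried 1.97 reads each in members and 2.02 in isolated peaks, and IgG positions 1.51 and 1.49. The 37-base reads made up 9.62% of the IgG positions in members and 9.51% in isolated peaks. Their share was larger in the whole IgG library, which had 1527327 positions with 37-base and 5491477 with 36-base reads. Members lay on 18 of the 19 chromosomes with peaks. They were 27 of 149 peaks (18.1%) on chromosome 11, 26 of 147 (17.7%) on chromosome 5, 15 of 86 (17.4%) on chromosome 8 and 4 of 70 (5.71%) on chromosome 14, and chromosome X had 0 among its 9 peaks. Differences between chromosomes were not tested.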

How the data were processed

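The authors deposited aligned reads for each sample (chromosome, start, end and strand) and a list of SREBP-2 regions with no score. Per the labels' protocols, 20 ng of DNA was used and fragments of 200 ± 5 bp were selected. No source used here gives the aligner, the peak caller, its threshold or the genome build. Reads reached past the last gene of the RefSeq table of GRCm38.p6 on 10 of 20 chromosomes (by up to 7.2 Mb), and on 0 past the end of mm9, whose lengths were supplied from general knowledge. Coordinates, taken to be mm9, are 1-based.

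The SREBP-2 file held 7312431 reads and the IgG file 12762782, of which 75.1% were 36 and 24.9% 37 bases long. The labels do not say whether both lengths of IgG read come from 1 library. Both still held identical reads, at 3.05 and 1.82 reads per position. Here 1 read was kept per position and strand, placed 100 bp downstream of its 5' end and counted in each region. Ratios are of shares of distinct reads, with 1 read added to each count in single regions and none in sums. Folds between partners are conditional odds ratios of the counts with no read added, so they can differ from the quotient of the printed ratios. Intervals are exact (95%), and those of read counts and ratios cover counting error only. They take each distinct read as its own molecule, though reads amplified without molecular identifiers may be copies of 1 molecule. Intervals of medians take the peaks as independent and reflect the spread across peaks, which are not replicates. Fisher's exact test with Benjamini-Hochberg adjustment at 0.05 compared partners (Python 3.11.15, SciPy 1.17.1, pandas 2.3.3, numpy 2.4.6), after the code was tested on simulated data.

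Named regions were all groups of at least 3 peaks, the 5 pairs of each distance class with the most SREBP-2 reads, pairs passing the test, the 2 pairs on either side of each distance limit, and the members of highest and lowest ratio. Other named regions were chosen after their values were seen. The members and comparisons were chosen with earlier results of these data known. A motif search was planned but not run for want of a genome of the build.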

Additional observations from a re-analysis of the deposited data

How the results depend on the processing

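The shift of 47 bp, the choice of each IgG read length and the settings on gaps rest on earlier or present results of these data. The number of peaks within 10 kb of another, 230, was 200 within 5 kb, 293 within 20 kb and 236 between edges, each within 1.5 times. The count of members with a lower bound above 1, 210, ran from 189 to 223 under other reads and controls and was 71 with a bound of 2. The number of pairs whose partners differed, 1, was 16 with all reads, in which duplicates count separately, and 0 with either IgG read length alone (36 or 37 bases). It stayed 1 with Holm's method, with unshifted reads and with the shift of 47 bp. The median ratio of the members, 3.28, was 2.47 with all reads, 2.79 and 5.29 against the 36-base and 37-base IgG reads and 2.93 within 250 bp of the midpoint. In the same order of settings it was 2.46, 2.86 and 5.1 for members under 1 kb apart (3.11 within 250 bp), 2.49, 2.63, 6.21 and 2.84 for those 1 to 10 kb apart only, and 2.44, 2.73, 5.42 and 2.79 for isolated peaks, which also gave 3.29 unshifted and 3.25 at the shift of 47 bp. Every one of these medians stayed above 1, which is largely built in, since the peaks were presumably called on these SREBP-2 reads. With all reads, against the 36-base reads and within 250 bp, the median of the members lay above that of isolated peaks, and against the 37-base reads (5.29 against 5.42) below it. The ratio between partners under 1 kb, 1.35, was 1.02 with all reads, 0.959 unshifted, 1.02 at 47 bp and 2.8 against the 37-base reads. Between partners 1 to 10 kb apart, 1.03 became 0.936 against the 36-base and 1.41 against the 37-base reads, and 0.932 without the 2 gaps densest in IgG of those over 2000 bp. The SREBP-2 density in gaps under 1 kb, 0.334 times that of the partners, was 0.217 unshifted and 0.229 at 47 bp. The cause of these changes was not tested. No paired analysis was possible because each antibody has 1 sample. The median peak held 21 SREBP-2 reads, which limits every comparison of single partners.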

Other observations

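Taken singly, with reads moved by 100 bp, the gaps of 10 of the 120 pairs had a lower bound of the SREBP-2 to IgG ratio above 1, 4 of them under 1 kb and 6 at 1 to 10 kb. Among the gaps under 1 kb, the one on chromosome 4 between the peaks at 155366390 and 155367030 stood out, since its 419 bp held 23 SREBP-2 and 25 IgG reads (ratio 2.7, 1.46 to 4.94), more SREBP-2 reads than either peak beside it (17 and 12). On chromosome 8, the 429 bp between the peaks at 82162910 and 82163723 held 11 and 9 reads (ratio 3.51, 1.35 to 9.76), with 17 and 14 SREBP-2 reads in the peaks. The other gaps of this kind under 1 kb rested on 4 SREBP-2 reads and 1 IgG read (chromosome 1 at 107886848) and on 3 and 0 (chromosome 11 at 49838360). At 1 to 10 kb, the ratios were 2.56 (1.33 to 4.84) on chromosome 9 at 77598562, 1.98 (1.05 to 3.55) on chromosome 10 at 41996359 and 1.87 (1.22 to 2.8) on chromosome 11 at 116704465. They were 2.19 (1.08 to 4.23) on chromosome 13 at 81022510, 2.51 (1.0 to 5.99) on chromosome 15 at 82000175 and 1.91 (1.51 to 2.4) on chromosome 9 at 3027368. In 4 gaps the upper bound lay below 1. They were the gap under 1 kb on chromosome 3 at 126299099, with 2 SREBP-2 and 24 IgG reads (0.351, 0.0279 to 0.982), and 3 at 1 to 10 kb. Of these, the gap on chromosome 17 at 28654966 held 8 and 68 reads (0.382, 0.143 to 0.717), that on chromosome 11 at 74645422 held 15 and 90 (0.514, 0.262 to 0.848) and that on chromosome 5 at 139847969 held 30 and 142 (0.634, 0.402 to 0.922). All these gaps were picked out after their values were seen, and no adjustment for the 120 gaps was made. They were not compared singly with the flanks outside each pair, so these ratios are not shown to be particular to the gaps.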
